A study of Mus musculus with 12 samples.

Results

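The adrenergic receptor genes were followed in SVR tumors, which are xenografts of a mouse angiosarcoma line of transformed endothelial cells, under inhibition of MEK, of the VEGF receptors, or of both. Members were taken by gene symbol as Adra1a, Adra1b, Adra1d, Adra2a, Adra2b, Adra2c, Adrb1 and Adrb3, which are 8 of the 54232 genes in the count table. The family had been selected on its levels in these same tumors, in particular on the lower Adra2a after every drug, so the receptor levels against control are given as a description with no test. Only Adra2a passed the filter on low counts, as 1 of 12897 genes that did.

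RNA was sequenced from 12 tumors, 3 in each of 4 treatments given by daily oral gavage. Control tumors received the vehicle (Cremophor, polyethylene glycol and Tween), trametinib treated tumors received the MEK inhibitor trametinib at 1 mg/kg, cediranib treated tumors received the pan-VEGF receptor inhibitor cediranib at 3 mg/kg, and combination treated tumors received both at those doses. All tumors were grown from SVR cells under the skin of nude mice, which lack T cells, and the labels give the strain as C57BL/6. The labels put the end of dosing at ulceration or a size limit, while the study also describes an experiment with a common harvest day. Which of these the sequenced tumors came from is not given, so the day of harvest could differ between treatments. Whole tumors were lysed, and tumor cells, stroma and skin are all mouse, so that fewer cells of a type and less RNA per cell cannot be told apart.

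Adrenergic receptors are G protein coupled receptors for adrenaline and noradrenaline, which reach tissues from the adrenal medulla and from sympathetic nerve endings along blood vessels. The alpha-1 receptors couple to Gq and phospholipase C and contract smooth muscle, the alpha-2 receptors couple to Gi and lower cyclic AMP, and the beta receptors couple to Gs and raise it. Beta blockers such as propranolol are used for infantile hemangioma, a benign vascular tumor, which is why the family is of interest in tumors of endothelial origin.

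The libraries held 9478865 to 11666094 counts, and a gene with 0 counts in a library could still be present at up to 3 counts, which is 0.251 to 0.349 CPM (counts scaled to the size of the library in the usual way, with TMM factors that correct for composition). These limits and the intervals below cover counting error only. No source says how the replicate tumors were spread over cages or days, so p-values measure the spread between these tumors. Of 10 endothelial genes, Tie1, Cdh5 and Tek were detected in all 12 tumors, with Tie1 at 14.8 to 190 CPM. Pecam1 was low at 0.272 to 5.01 CPM, and Emcn, which marks venous and capillary endothelium, had no count in the 3 trametinib treated tumors and did not exceed 0.303 CPM elsewhere.

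Promoter windows are shown for Adra2a and Adrb1, which had the most counts among the alpha-2 and the beta genes listed. Adra2a was lower and Adrb1 higher in counts after trametinib. RefSeq (GRCm38.p6) gave windows of 250 bases before to 50 bases after a start for 5 of the 8 receptor genes, and not for Adra1a, Adra1d or Adrb3. The Adra2a window lies at chr19:54045009-54045308 on the + strand and the Adrb1 window at chr19:56721867-56722166 on the + strand. Both are printed 5′ to 3′ with matches to TGACG (the core of the cyclic AMP response element) and to GGGCGG or its reverse complement (a GC box) in capitals.
Adra2a: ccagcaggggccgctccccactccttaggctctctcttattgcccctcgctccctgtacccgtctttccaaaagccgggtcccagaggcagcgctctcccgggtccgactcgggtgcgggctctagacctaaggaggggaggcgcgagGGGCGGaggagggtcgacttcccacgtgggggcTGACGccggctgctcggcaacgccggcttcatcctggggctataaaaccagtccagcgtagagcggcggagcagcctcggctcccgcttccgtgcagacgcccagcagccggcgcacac
Adrb1: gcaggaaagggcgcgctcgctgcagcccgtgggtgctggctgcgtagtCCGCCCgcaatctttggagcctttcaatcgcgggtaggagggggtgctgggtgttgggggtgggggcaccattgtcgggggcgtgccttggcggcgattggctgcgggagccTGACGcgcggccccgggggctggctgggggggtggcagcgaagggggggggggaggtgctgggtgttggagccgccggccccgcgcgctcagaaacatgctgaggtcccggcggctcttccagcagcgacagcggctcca
Each window held TGACG, beginning 69 bases before the start in Adra2a and 90 bases before it in Adrb1, and 20.8% of all 32851 windows held that motif on either strand. A GC box lay 102 bases before the start in Adra2a and, on the opposite strand, 202 bases before it in Adrb1, against 35.7% of all windows. The full element TGACGTCA (1.79% of windows), the AP-1 motif TGANTCA (7.81%) and the ETS motif CCGGAAG (8.86%) were searched on both strands and matched neither window. GC content was 68.7% in the Adra2a window and 72.3% in the Adrb1 window, with a median of 52.7% over all windows.

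In control tumors the receptor counts were nearly all Adra2a. Of 462 counts for the 8 genes in the 3 control tumors, 448 were Adra2a, and its share per tumor was 91.5%, 97.3% and 98.6%. The share was 79.4%, 71.0% and 87.8% after cediranib, 75.9%, 20% and 16.7% after trametinib and 45.5%, 60.7% and 6.67% after the combination. Trametinib replicate 1 thus lay within the cediranib range, far from the other tumors of its group, and it held 22 of the 28 Adra2a counts of that group. The other 7 genes summed to 3 to 6 counts per control tumor, 7 to 20 per trametinib treated tumor, 6 to 20 per cediranib treated tumor and 11 to 18 per combination treated tumor. Over all 12 tumors Adra2a took 628 counts (83.4%), Adra1d and Adrb1 43 each, Adrb3 22, Adra1b 8, Adra2c 6, Adra1a 3 and Adra2b 0.

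**Figure D1:**
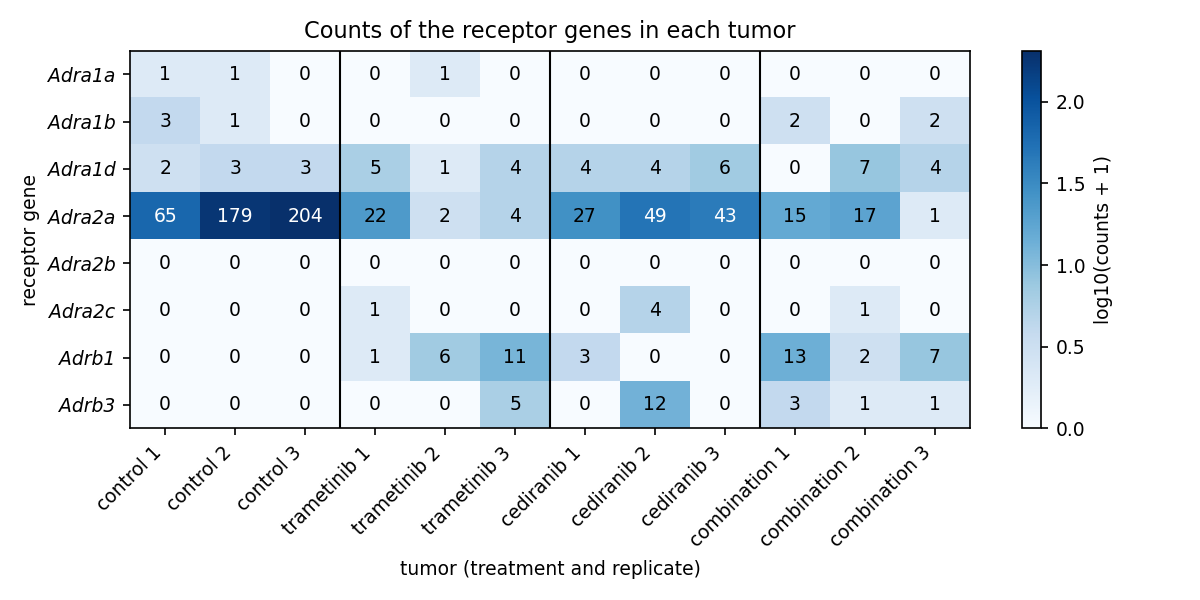
Counts of the 8 receptor genes (rows) in each of the 12 tumors (columns, by treatment and replicate), with the count printed in each cell and the color giving log10(counts + 1). Adra2a fills the control columns with 65 to 204 counts, while Adrb1 and Adrb3 are at 0 in all 3 control tumors and Adrb1 has a count in all 6 tumors that received trametinib.

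Adra2a (ENSMUSG00000033717), the alpha-2A receptor that restrains noradrenaline release at nerve endings and lowers cyclic AMP in the cells that carry it, lies on the + strand of chromosome 19 from 54045182 to 54048982 in the GRCm38 coordinates of the table, as 1 exon in the table's gene model. GENCODE M21 begins the gene at 54044151 and lists coding transcripts of 1 or 2 exons, with 0 other genes overlapping it. In control tumors its level was 5.54, 18.1 and 20.6 CPM, from 65, 179 and 204 counts. After cediranib it was 2.698, 4.63 and 4.11 CPM, from 27, 49 and 43 counts. After trametinib it was 2.00, 0.233 and 0.335 CPM, from 22, 2 and 4 counts. After the combination it was 1.51, 1.54 and 0.0928 CPM, from 15, 17 and 1 counts. Each drug group lay wholly below the control tumors, and control replicate 1 was the lowest of the controls by a wide margin.

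The mean level of Adra2a was 14.8 ± 8.09 CPM in control tumors (SD, n = 3), 3.82 ± 1.00 after cediranib, 1.05 ± 0.829 after the combination and 0.855 ± 0.991 after trametinib. In that order of means, the ranges of trametinib and the combination overlap, and the other neighbours do not. The fitted log2 fold change against control was -4.06 (SE 0.81) for trametinib, -1.94 (SE 0.70) for cediranib and -3.80 (SE 0.79) for the combination, which are levels 16.6-fold, 3.85-fold and 13.9-fold lower. Leaving out 1 tumor at a time, these values ran from -5.61 to -3.66, from -2.35 to -1.63 and from -4.21 to -3.27, and the value of -5.61 came without trametinib replicate 1, the highest of its group. All 3 comparisons use the same control tumors. For background, 2.4% of the 12897 genes tested were called for trametinib against control, 0% for cediranib (edgeR, with 557 genes under an unadjusted p of 0.05 and 9 genes called by DESeq2) and 3.61% for the combination, a call being an adjusted p under 0.05 with a log2 fold change of at least 1.5 either way. Nothing is read from that background for Adra2a, which was chosen from these comparisons.

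**Figure D2:**
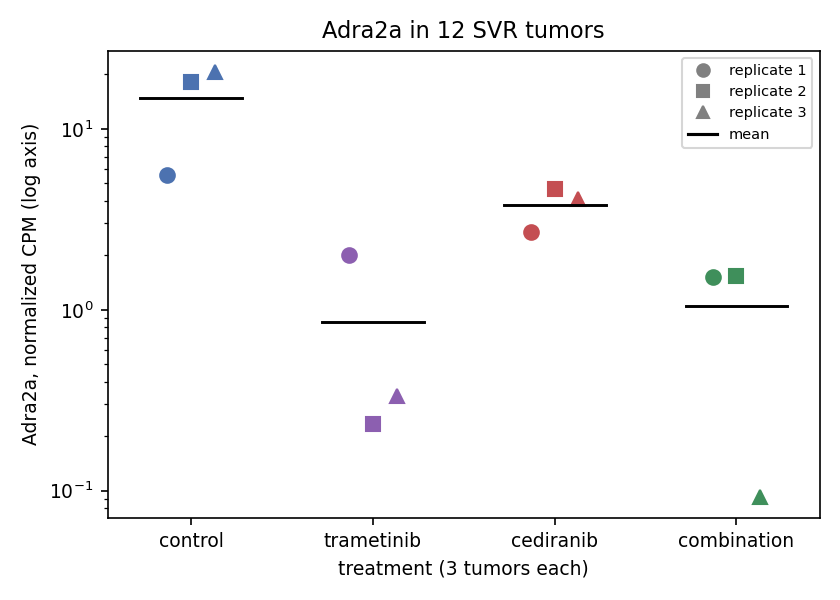
Adra2a level in each tumor in normalized CPM (log axis) by treatment, with symbols for replicates and a line at the mean of 3 tumors. The control tumors lie at 5.54 to 20.6 CPM, the cediranib treated tumors at 2.698 to 4.63, and the trametinib and combination treated tumors at or below 2.00.

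Per kilobase of gene length, which allows genes to be set side by side within the limits of exome capture, Adra2a was near the median gene in control tumors and a low one after trametinib. Its mean was 3.88 RPKM (CPM per kilobase) in control tumors, at percentile 53.0 of all tested genes, whose median was 3.38. The level after cediranib was 1.00 RPKM, at percentile 26.1. After trametinib it was 0.225 RPKM, at percentile 7.06, and after the combination 0.276 RPKM, at percentile 7.73.

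The drug groups were also compared with each other, and none of the 3 differences in Adra2a passed the test. The choice of the family used the Adra2a levels of these same drug treated tumors, so the p-values here are not independent of that choice. Between trametinib and cediranib treated tumors the log2 difference was -2.11 (95% interval -3.87 to -0.36, edgeR adjusted p = 0.127), with the trametinib treated tumors lower and the groups not overlapping (exact permutation p = 0.1, the smallest that 3 against 3 allows). Between combination and cediranib treated tumors it was -1.86 (-3.57 to -0.14, edgeR adjusted p = 0.180), again without overlap (exact permutation p = 0.1). Combination and trametinib treated tumors differed by 0.26 (-1.67 to 2.18, edgeR adjusted p = 0.915), an interval that leaves room for a difference of more than 3-fold in either direction. The background of called genes was 3.49%, 2.45% and 0.675% in these comparisons. The trametinib against cediranib difference was called with the DESeq2 Wald test (adjusted p = 0.0429), without trametinib replicate 1 (edgeR adjusted p = 0.0485, log2 -3.66) and with no filter on low counts (edgeR adjusted p = 3.29e-06), and the combination against cediranib difference with no filter (edgeR adjusted p = 8.44e-05).

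Of the other alpha-2 genes, Adra2b (alpha-2B, found mainly in vascular smooth muscle) had no count in any of the 12 tumors. Adra2c (alpha-2C, which also restrains transmitter release) had 6 counts in all, 4 of them in cediranib replicate 2 and 1 each in trametinib replicate 1 and combination replicate 2. Over the 3 tumors of a group, 3 counts correspond to 0.0947 to 0.0967 CPM, so expression of Adra2b at or under that level was not detectable at this depth.

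The beta receptor Adrb1 went the other way in counts. Adrb1 (ENSMUSG00000035283), the beta-1 receptor best known for raising the rate and force of the heart, lies on the + strand of chromosome 19 from 56722372 to 56724862 in the table and from 56722199 to 56733113 in GENCODE M21, whose coding transcript has 1 exon. It had 0 counts in all 3 control tumors. In trametinib treated tumors it had 1, 6 and 11 counts (0.0908, 0.698 and 0.921 CPM), and in combination treated tumors 13, 2 and 7 (1.31, 0.182 and 0.650 CPM). In cediranib treated tumors it had 3, 0 and 0 counts. A count of Adrb1 was thus present in 6 of 6 tumors that received trametinib and in 1 of 6 that did not, cediranib replicate 1.

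Pooled over a group, Adrb1 stood at 0.570 CPM after trametinib (95% Poisson interval 0.338 to 0.902) and 0.694 CPM after the combination (0.435 to 1.05). Set over the limit that 0 counts over the 3 control tumors allow, 0.0952 CPM, these pooled levels were 5.99-fold and 7.29-fold higher. Both ratios leave out the counting error of the drug groups and the spread between tumors. Trametinib replicate 3 held 11 of the 18 counts and combination replicate 1 held 13 of the 22. Trametinib replicate 1, at 0.0908 CPM, was below that limit. Between drug groups, the exact permutation p was 0.2 for trametinib against cediranib, 0.2 for the combination against cediranib and 0.8 for the combination against trametinib. All 3 were 1 after Benjamini-Hochberg adjustment over the 16 such exact comparisons of the genes below the filter that had a count in either group, in a design where 0.1 is the smallest p. When every gene was fitted without the filter, edgeR gave a log2 difference of 2.40 (adjusted p = 0.233) for trametinib against cediranib and 2.74 (adjusted p = 0.130) for the combination against cediranib, so neither was called.

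Adrb3 (ENSMUSG00000031489), the beta-3 receptor that drives lipolysis in fat cells, had 22 counts, of which 12 were in cediranib replicate 2 and 5 in trametinib replicate 3. The combination treated tumors had 3, 1 and 1, and the other 7 tumors, all controls among them, had 0. Some of the adipocyte genes were highest in the same pair of tumors, and others were not. The summed level of 9 adipocyte genes was 25.3 CPM in cediranib replicate 2 and 25.9 CPM in trametinib replicate 3, against 8.13 to 15.3 CPM in the other 10 tumors. Plin1, which coats the fat droplet, was at 5.67 and 6.61 CPM there and at most 2.00 CPM elsewhere, Cfd (adipsin) at 0.851 and 0.502 CPM against at most 0.116, and Cidec at 0.662 and 0.419 CPM against at most 0.0999. Lipe was at 10.3 and 7.95 CPM against at most 5.86. Adipoq, the defining hormone of fat cells, was at 0 in cediranib replicate 2 and at 0.167 CPM in trametinib replicate 3. Pparg was at 4.54 CPM in cediranib replicate 2, below all control tumors at 6.77 to 7.15. In trametinib replicate 3, Fabp4 (1.42 CPM) was below control replicate 3 (1.62), Lep (0.167) was below cediranib replicate 1 (0.200), and Retn was at 0. The part of fat cells in the Adrb3 counts was not tested. GENCODE M21 places an antisense gene, Gm45470, over Adrb3, and reads of the pair cannot be told apart without a stated strand setting.

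**Figure D3:**
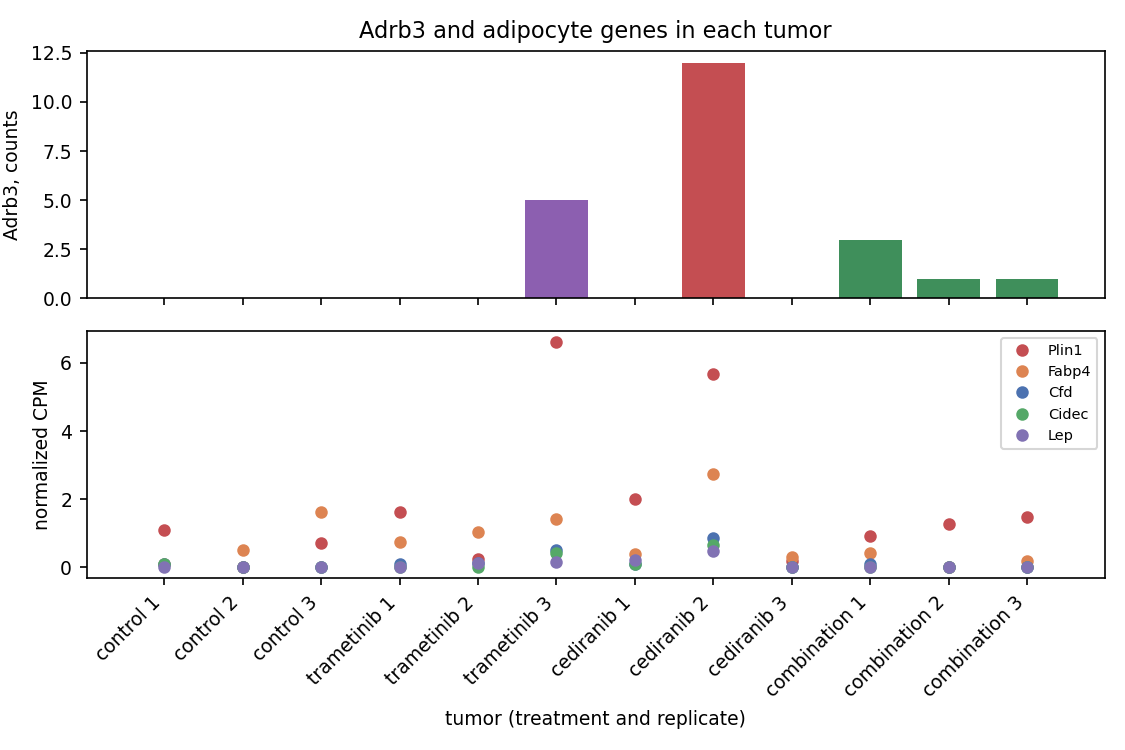
Upper panel, Adrb3 counts in each of the 12 tumors. Lower panel, normalized CPM of 5 adipocyte genes in the same tumors. Cediranib replicate 2 (12 Adrb3 counts) and trametinib replicate 3 (5 counts) are also the tumors with the highest Plin1, at 5.67 and 6.61 CPM.

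The alpha-1 receptors were scarce. Adra1d (alpha-1D, a receptor of arterial smooth muscle) was counted in 11 of 12 tumors, at 2, 3 and 3 counts in control tumors, 5, 1 and 4 after trametinib, 4, 4 and 6 after cediranib and 0, 7 and 4 after the combination. The cediranib treated tumors, at 0.378 to 0.574 CPM, all lay above the control tumors, at 0.170 to 0.304 CPM, while the trametinib and combination treated tumors overlapped both. Between drug arms the groups overlapped in all 3 comparisons, with exact permutation p of 0.4 to 0.9. An antisense gene, Gm14285, overlaps Adra1d. Adra1b (alpha-1B) had 4 counts in control and 4 in combination treated tumors and 0 in the others, and Adra1a (alpha-1A) had 1 count in each of 3 tumors.

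Several marker lists moved with Adra2a. Endothelial genes are shared by SVR cells and host vessels, whose parts cannot be told apart here. The summed level of 10 endothelial genes was 187 to 396 CPM in control tumors, 112 to 297 after cediranib, 45.9 to 105 after trametinib and 30.9 to 72.4 after the combination. No tumor that received trametinib reached the range of those without it, which is the order seen for Adra2a too. Control replicate 1, the control with least Adra2a, had the lowest endothelial sum of the controls, and its epidermal sum was 627 CPM against 42.9 and 22.1 CPM in the other controls. The sum of 8 macrophage genes was 333 to 547 CPM in control tumors, 237 to 311 after trametinib, 235 to 317 after cediranib and 136 to 263 after the combination, so that it too was below control in every drug group. Most of that sum was Mrc1, at 291 to 474 CPM in control tumors and 178 to 247 after trametinib. Every other gene of the list overlapped between these groups, such as Lyz2 at 15.2 to 38.6 and 19.8 to 40.4 CPM. The 10 epidermal genes did not follow Adra2a, with sums of 4.02 to 9.99 CPM after trametinib and 2995 to 4465 CPM after the combination. Smooth muscle and pericyte genes, at 89.2 to 1864 CPM, and nerve and Schwann cell genes, at 2.68 to 11.4 CPM, had no such order, nor had fibroblast genes at 1484 to 35315 CPM or skeletal muscle genes at 6.77 to 22601 CPM. The part of endothelial or macrophage content in the Adra2a difference was not tested.

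The G proteins that pass on the receptor signal were not called in any comparison. Gnas, the Gs subunit of the beta receptors, was at 2913 to 3703 CPM over all 12 tumors. Gnai2, a Gi subunit of alpha-2 receptors, averaged 727 ± 113 CPM in control tumors and 505 ± 103 after the combination (SD, n = 3, log2 -0.52, edgeR adjusted p = 0.0664). Gnaq, a Gq family subunit of alpha-1 receptors, was at 95.2 to 132 CPM. Gna11, the other Gq family subunit tested, averaged 52.5 ± 4.54 CPM in control tumors, 44.3 ± 12.9 after cediranib, 82.7 ± 9.28 after trametinib and 64.2 ± 7.84 after the combination. It passed the adjusted p but not the size for trametinib against cediranib (log2 0.90, edgeR adjusted p = 0.0147), and against control trametinib gave 0.65 (edgeR adjusted p = 0.0663). Among adenylyl cyclases, Adcy6 averaged 57.9 ± 4.29 CPM in control tumors and 88.5 ± 4.79 after the combination (log2 0.61, edgeR adjusted p = 0.00888), a difference below the size needed for a call. The enzymes that make the ligands were at or near 0, with Th, Dbh and Pnmt at no more than 0.419 CPM in any tumor, while Maoa, which breaks catecholamines down, was at 5.55 to 14.3 CPM.

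Of 83 genes in 8 lists around the receptors (ligand handling, G proteins, adenylyl cyclases, protein kinase A, phospholipase C with protein kinase C, cyclic AMP phosphodiesterases, receptor kinases with arrestins and RGS proteins, and cyclic AMP responsive genes), 62 were tested. Calls numbered 2 for trametinib against control (3.23%, background 2.4%), 0 for cediranib against control (background 0%, with 2 genes under an unadjusted p of 0.05 in edgeR and 0 called by DESeq2), 5 for the combination against control (8.06%, background 3.61%), 0 for the combination against trametinib (background 0.675%, with 20 genes under an unadjusted p of 0.05 in edgeR and 1 called by DESeq2), 7 for the combination against cediranib (11.3%, background 2.45%) and 2 for trametinib against cediranib (3.23%, background 3.49%). The median log2 fold change over the 62 genes lay between -0.13 and 0.08 in the 6 comparisons, against -0.01 to 0.01 over all genes tested. With 1 tumor left out, the count for the combination against cediranib was 1 to 4 (1 without combination replicate 1, 2 without combination replicate 3 or cediranib replicate 2, 3 without cediranib replicate 1, 4 without either remaining tumor), and that against control was 1 without combination replicate 1, 2 without combination replicate 2 or control replicate 3, 3 without combination replicate 3 or control replicate 2 and 7 without control replicate 1. For trametinib against control and against cediranib it ran from 0 to 2 and from 0 to 3. No gene of the ligand handling, G protein, adenylyl cyclase or protein kinase A lists was called.

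Phosphodiesterases, which degrade cyclic AMP, gave both calls for trametinib against control, and both were lower, as 2 of 8 tested (background 2.4%). The list as a whole was not lower, with a median log2 fold change of 0.008. Pde7a was higher but below the size for a call (log2 0.78, edgeR adjusted p = 0.0161). Pde4d (1.11, edgeR adjusted p = 0.201) and Pde3b (0.39, edgeR adjusted p = 0.193) were also higher. Pde4b averaged 72.4 ± 21.9 CPM in control tumors and 23.0 ± 13.2 after trametinib (log2 -1.65, SE 0.42, edgeR adjusted p = 0.0385). It was also lower after trametinib than after cediranib, at 69.8 ± 37.7 CPM (log2 -1.60, edgeR adjusted p = 0.0361). Pde4a averaged 7.94 ± 0.439 and 2.76 ± 1.56 CPM (log2 -1.53, SE 0.41, edgeR adjusted p = 0.0483), and its values of 4.18, 3.03 and 1.09 CPM all lay below the 7.48 to 8.35 CPM of control. In combination treated tumors Pde4b was at 54.4 to 69.4 CPM and was not called against control. Pde7b was called only in the combination against cediranib, at 10.6 ± 5.07 against 3.55 ± 0.947 CPM (log2 1.58, edgeR adjusted p = 0.0433). The lower endothelial, macrophage (mostly Mrc1) and epidermal sums of trametinib treated tumors against control (45.9 to 105 against 187 to 396, 237 to 311 against 333 to 547, and 4.02 to 9.99 against 22.1 to 627 CPM) moved with both calls for trametinib, and their part in them was not tested. These calls sat near the threshold. Pde4b and Pde4a each lost the call against control without any 1 of several tumors (adjusted p of 0.0880 to 0.130 without control replicate 1 or 3 or trametinib replicate 2 or 3 for Pde4b, and 0.101 to 0.108 without any tumor other than trametinib replicate 1 for Pde4a). Pde4b against cediranib was lost without cediranib replicate 2 or 3 or trametinib replicate 2 or 3 (0.0597 to 0.123), and Pde7b without any tumor but combination replicate 2 (0.0670 to 0.158).

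Among phospholipase C beta enzymes, which act below Gq, Plcb1 and Plcb4 were called higher in some comparisons. Plcb1 was at 13.5, 9.83 and 9.80 CPM in control tumors, 10.6, 14.0 and 13.01 after cediranib, 31.8, 23.7 and 15.9 after trametinib and 49.1, 36.0 and 80.2 after the combination. The combination treated tumors lay above all 9 others. The log2 fold change was 2.32 (SE 0.31, edgeR adjusted p = 0.00179) against control and 2.13 (SE 0.31, edgeR adjusted p = 0.00298) against cediranib, and both calls held under all 12 alternatives tried for each. Against control, trametinib alone gave 1.11 (SE 0.31, edgeR adjusted p = 0.0557). Plcb4 was called for trametinib against cediranib, at 28.5 ± 13.2 against 8.53 ± 2.46 CPM (log2 1.74, SE 0.35, edgeR adjusted p = 0.0112), and without trametinib replicate 2 the difference was 1.33, below the size for a call. Plcb3 went the other way after trametinib, at 112 ± 7.48 against 156 ± 15.4 CPM in control tumors (log2 -0.48, edgeR adjusted p = 0.0187), also below the size for a call. Fibroblast (6934 to 35315 against 1484 to 6263 CPM) and skeletal muscle sums (225 to 22601 against 11.6 to 110) were higher after trametinib than after cediranib. Endothelial (45.9 to 105 against 112 to 297) and epidermal sums (4.02 to 9.99 against 44.5 to 2878) were lower. Their part in the Plcb4 and Pde4b calls of that comparison was not tested.

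RGS proteins, which end Gi and Gq signals by speeding GTP hydrolysis, gave 3 calls for the combination against control, all lower, among the 10 tested genes of the receptor kinase, arrestin and RGS list (background 3.61%). The other 2 tested RGS genes were not called, with log2 fold changes of -1.30 for Rgs3 (edgeR adjusted p = 0.0208, below the size for a call) and -0.47 for Rgs2 (edgeR adjusted p = 0.302). Rgs4 had 95 counts in control tumors, 65 after cediranib and 1 after the combination, which gives ratios of 95.6 (95% interval 16.7 to 3813) and 66.4 (11.5 to 2662) for counting error alone. Its levels were 1.11, 2.84 and 5.46 CPM in control tumors, 0.599, 5.30 and 0.287 after cediranib, 1.54, 1.86 and 1.93 after trametinib and 0, 0 and 0.0928 after the combination. The edgeR adjusted p was 0.0181 against control and 0.0353 against cediranib. Rgs16 averaged 13.6 ± 9.87 CPM in control tumors, 8.51 ± 7.31 after cediranib and 1.19 ± 0.575 after the combination, with log2 fold changes of -3.49 (SE 0.77, edgeR adjusted p = 0.0172) and -2.82 (SE 0.77, edgeR adjusted p = 0.0458). Rgs5, a pericyte gene, averaged 9.58 ± 6.02 and 2.55 ± 0.701 CPM in control and combination treated tumors (log2 -1.90, edgeR adjusted p = 0.0433), although control replicate 1, at 2.64 CPM, lay within the combination range. The summed smooth muscle and pericyte level was 97.4 CPM in control replicate 1 and 462 and 473 in the other controls. It was 89.2 to 245 CPM after the combination, and its part in the Rgs5 call was not tested. Single tumors decided several of these calls. Without control replicate 3 or any 1 combination tumor the adjusted p of Rgs4 against control was 0.0573 to 0.0672, that of Rgs16 was 0.0646 to 0.0680 without control replicate 3 or combination replicate 1 or 2, and that of Rgs5 was 0.0781 to 0.142 without any tumor but control replicate 1. Against cediranib, Rgs4 was lost without cediranib replicate 2 or any 1 combination tumor (0.0939 to 0.131), with a log2 fold change of -3.39 without that cediranib tumor, and Rgs16 without any tumor but cediranib replicate 1 (0.0776 to 0.168). Arrb2, the arrestin that uncouples receptors, was below the size for a call, at 113 ± 13.3 CPM in control tumors and 79.5 ± 10.0 after trametinib (log2 -0.51, edgeR adjusted p = 0.0352).

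Cyclic AMP responsive genes were higher in combination treated tumors where called, as 1 of 10 tested against control (background 3.61%) and 3 of 10 against cediranib (background 2.45%). Those not called against control went both ways. Nr4a1 (log2 -0.65), Fosb (-0.69), Atf1 (-0.72) and Creb1 (-0.06) were lower. Nr4a3 (0.96), Per1 (1.63), Sik1 (1.33), Ppargc1a (0.36) and Dusp1 (0.17) were higher. Nr4a2, an orphan nuclear receptor, was at 21.9, 35.6 and 26.1 CPM in control tumors, 11.3, 14.3 and 38.6 after cediranib and 109, 76.8 and 71.8 after the combination, with log2 fold changes of 1.63 (edgeR adjusted p = 0.0449) against control and 2.01 (edgeR adjusted p = 0.0250) against cediranib. Per1, a clock gene, was at 25.4, 24.5 and 32.6 CPM after cediranib and 146, 130 and 161 after the combination (log2 2.40, SE 0.55, edgeR adjusted p = 0.0234). Its control values of 102, 14.4 and 23.8 CPM were widely spread, and against control it was not called (edgeR adjusted p = 0.0736). Sik1, a kinase that restrains CREB coactivators, averaged 5.78 ± 0.986 and 16.4 ± 4.02 CPM (log2 1.501, SE 0.30, edgeR adjusted p = 0.0130), just at the size for a call. Against control Nr4a2 was lost without any 1 of the 6 tumors (adjusted p of 0.0765 to 0.138). Against cediranib it was lost without cediranib replicate 1 or 2 or combination replicate 1 or 2 (0.0518 to 0.0859), Per1 without any tumor but combination replicate 2 (0.0530 to 0.0839), and Sik1 without cediranib replicate 1 (0.0576) or, by size alone, without combination replicate 1 or 3 (log2 1.44 and 1.37). These genes also answer to signals other than cyclic AMP. The summed epidermal level of 2995 to 4465 CPM in combination treated tumors, against 22.1 to 627 in control and 44.5 to 2878 in cediranib treated tumors, moved with all calls for the combination. So did the lower endothelial sum, at 30.9 to 72.4 CPM against 187 to 396 in control and 112 to 297 in cediranib treated tumors. The macrophage sum, mostly Mrc1, was lower against control, at 136 to 263 against 333 to 547 CPM. The part of these sums in the calls was not tested.

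**Figure D4:**
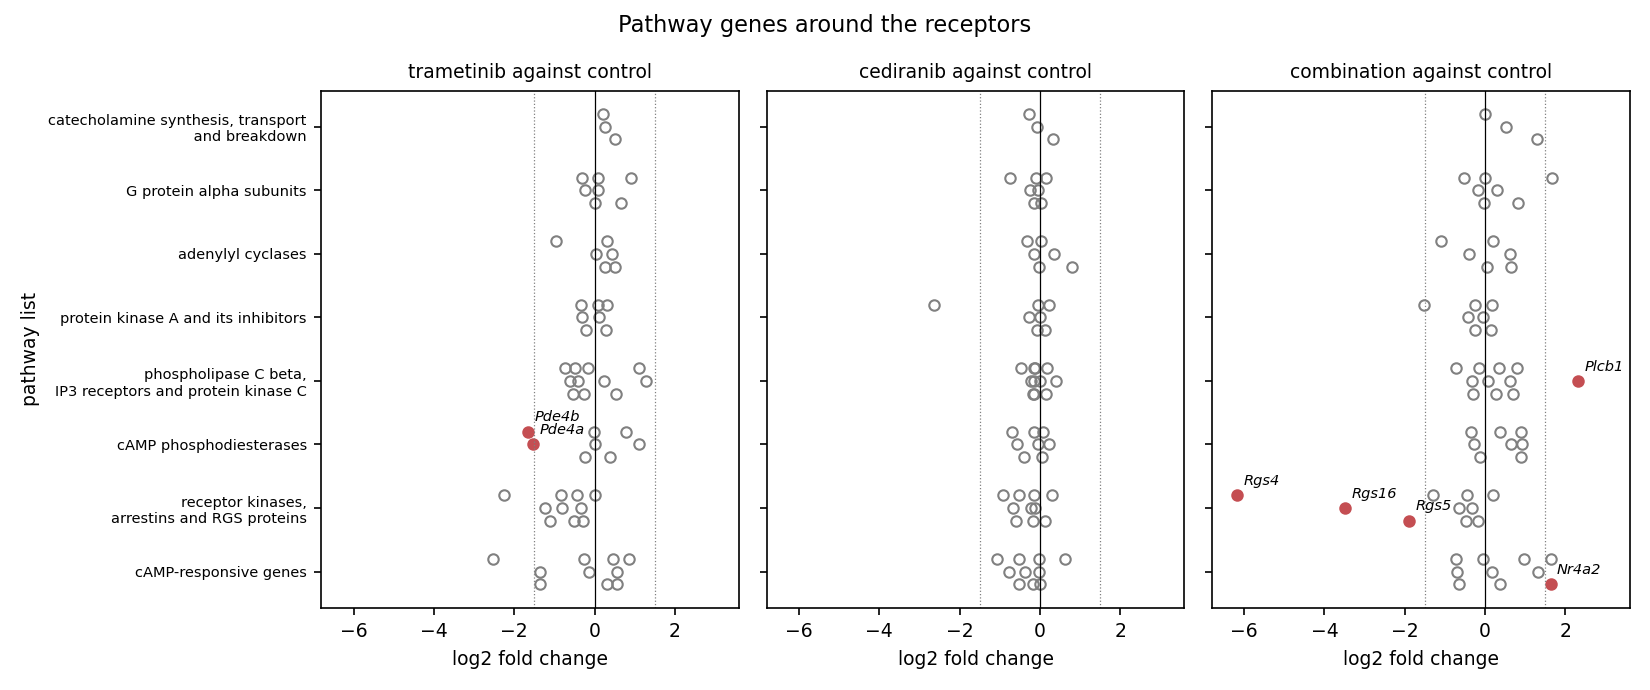
Log2 fold change against control of the 62 tested pathway genes, in 8 lists, for trametinib, cediranib and the combination. Filled points are called genes, open points are not called, and dotted lines mark a log2 fold change of 1.5 either way. Pde4a and Pde4b are called lower for trametinib, Rgs4, Rgs5 and Rgs16 lower and Plcb1 and Nr4a2 higher for the combination, and none for cediranib.

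The 5 genes whose log2 CPM was most like that of Adra2a over the 12 tumors, by Pearson's r, were Gm45883 (0.936), Mmd (0.933), Utp4 (0.912), Ctu2 (0.908) and Piezo1 (0.907). The tumors share their treatment groups, so these values describe likeness and were not tested. With the treatment means removed, r was 0.763, 0.753, 0.653, 0.783 and 0.712 in the same order. Mmd, a membrane protein first found in maturing macrophages, fell along the same order of treatments, from 51.6 ± 15.4 CPM in control tumors to 40.0 ± 5.07 after cediranib, 21.5 ± 5.82 after the combination and 19.7 ± 2.27 after trametinib. Piezo1, the mechanosensitive ion channel of endothelium, averaged 293 ± 54.97, 247 ± 17.6, 186 ± 34.2 and 194 ± 26.2 CPM in that order. Utp4, which acts in ribosome assembly, averaged 133 ± 19.3 CPM in control tumors and 76.7 ± 10.6 after trametinib. Ctu2, which modifies transfer RNA, averaged 123 ± 22.0 and 79.9 ± 17.1 CPM. Gm45883 and Mmd overlap on the same strand of chromosome 11, and Ctu2 and Piezo1 overlap on opposite strands of chromosome 8, so the counts within each pair may not be independent. The range of Adra2a, from 0.0928 to 20.6 CPM, was far wider than that of any of the 5.

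**Figure D5:**
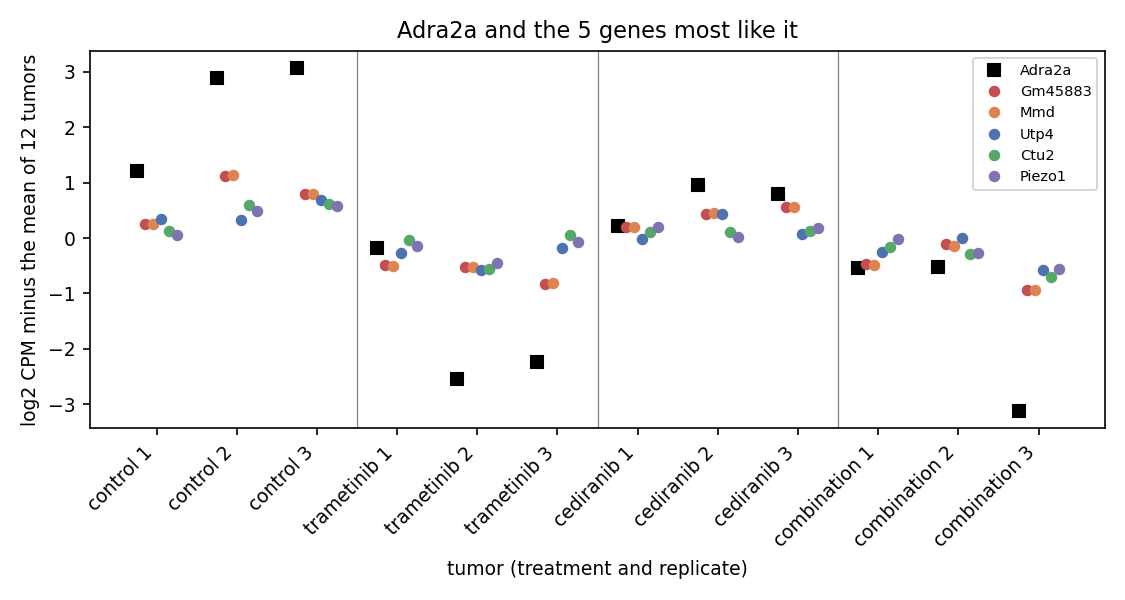
Log2 CPM of Adra2a (squares) and of the 5 genes most like it (circles) in each of the 12 tumors, as the difference from each gene's mean over all tumors. All 6 genes are higher in control than in trametinib treated tumors, and Adra2a spans the widest range.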

How the data were processed

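RNA of 12 SVR tumors was captured with exome probes, made into libraries and sequenced. Per the labels the authors used bcl2fastq 1.8.4, STAR 2.7.1a with the GRCm38 genome and featureCounts 1.6.0 for gene counts. Raw counts were deposited. The sources used here do not give the annotation release, the strand setting or the treatment of multimapped reads. Groups were taken from sample titles and treatment labels, and 0 columns were left over. Of 54232 gene identifiers 54079 were found in GENCODE M21.

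Counts were scaled with TMM and filtered with filterByExpr (minimum count 10, minimum total 15, which asks for about 0.970 CPM in 3 libraries). All 12 libraries were fitted with the quasi-likelihood test of edgeR 4.0.16 in R 4.3.3, with Benjamini-Hochberg adjustment over 12897 genes. A call needed an adjusted p under 0.05 and a log2 fold change of 1.5 or more in size. Log2 CPM used a prior count of 2, and SE was the log2 fold change over the square root of F. The fit was tested on simulated data. Depth was 9478865 to 11666094 counts per library. Single receptor genes below the filter were compared by exact permutation of tumors, two-sided. Alternatives were library totals, size factors and the Wald test of DESeq2 1.42.0, no filter, fits of the compared groups alone, a replicate block, and leaving out each tumor.

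The receptor genes, the pathway lists and the marker lists were chosen with earlier results of these data known. All 8 receptors, every called pathway gene (at most 12 per comparison), G proteins and effectors that the receptors act through, and the 5 genes with the highest r to Adra2a were named, and Adcy6, Arrb2, Rgs2, Rgs3, Plcb3, Maoa, Th, Dbh, Pnmt and the single marker genes were named after their values were seen. Other adrenergic receptor genes are not reported here. Promoter sequences are from RefSeq.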

Additional observations from a re-analysis of the deposited data

How the results depend on the processing

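Adra2a was lower than control after each drug under all 12 alternatives of each comparison. Between combination and trametinib treated tumors its log2 difference changed sign with the tumor left out, from -0.149 without trametinib replicate 3 to 1.81 without trametinib replicate 1 (-0.141 without trametinib replicate 2, -0.139 without combination replicate 2 and -0.0780 without combination replicate 1), against 0.26 with all tumors. Receptor genes called for trametinib against cediranib went from 0 to 1 with no filter, with DESeq2 and without trametinib replicate 1 (range 0 to 1 over tumors left out), and for the combination against cediranib from 0 to 1 with no filter. The gene was Adra2a each time, and the cause was not tested.

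Pathway genes called moved as follows. With no filter they numbered 4 for trametinib against control, 1 for cediranib against control, 9 for the combination against control, 4 for trametinib against cediranib and also 4 for the combination against trametinib. With the replicate block they numbered 1, against 2, for trametinib against control, 3, against 5, for the combination against control and 4, against 7, for the combination against cediranib. Fitting only the compared groups gave 0 for trametinib against control, 2 for the combination against trametinib, for trametinib against cediranib 1 and for the combination against cediranib 3, with fewer samples in the fit. DESeq2 gave 4 for trametinib against control and 1 for the combination against trametinib. Leaving out 1 tumor gave 0 to 2 for trametinib against control, 1 to 7 for the combination against control, 0 to 3 for trametinib against cediranib and 1 to 4 for the combination against cediranib. The replicate numbers did not pair the tumors, since the correlations of same-numbered deviations ran on both sides of 0 and 4 of 12 libraries matched best with their own number. Of 227 alternative values for 19 called or named single-gene results, 146 kept direction and call, 73 lost the call, 4 gained it and 4 changed sign. Scaling by library totals alone shifted the median log2 fold change by 0.13 for the combination against control and against trametinib, and 0.11 against cediranib. The other 7 receptor genes had too few counts for the fit, so depth limits what can be said of them.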
